A study of Homo sapiens with 2 samples.

Results

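The protein arginine methyltransferases (PRMTs) were described in RNA-Seq counts from parental control and CARM1 knockout (CARM1 KO) cells. The members were the 9 genes CARM1, PRMT1, PRMT2, PRMT3, PRMT5, PRMT6, PRMT7, PRMT8 and PRMT9, found by their Ensembl identifiers among the 57736 genes of the deposited table. All 9 were found, and 8 of them had at least 10 reads in the 2 libraries together. Both groups are A1847 cells, a human epithelial ovarian cancer cell line with high CARM1. One group holds the parental control cells, which are CARM1 wild type. The other holds CARM1 KO cells, a clone obtained with the lentiviral CRISPR vector pLentiCRISPR v2 carrying a guide RNA against CARM1. There was 1 library per group. No difference below therefore has a replicate check, each compares 2 libraries rather than 2 conditions, and traits of the single clone cannot be told apart from effects of the CARM1 edit.

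PRMTs transfer methyl groups from S-adenosylmethionine to the arginine side chains of histones and many RNA-binding proteins. Type I enzymes (PRMT1, PRMT2, PRMT3, CARM1, PRMT6 and PRMT8) place both methyl groups on the same nitrogen, which gives asymmetric dimethylarginine. Type II enzymes (PRMT5 and PRMT9) place them on different nitrogens, which gives symmetric dimethylarginine, and the type III enzyme PRMT7 stops at monomethylarginine. CARM1, also called PRMT4, is a transcriptional coactivator that methylates histone H3 and chromatin regulators such as BAF155.

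The guide RNA that was used to edit CARM1 is shown because it defines the CARM1 KO group. It is printed in lower case with the adjacent NGG motif that Cas9 needs (the PAM, read from the reference) in capitals, followed by the GRCh37 reference around the site with the guide's match in capitals.
CARM1 guide and PAM: agcacggaaaatctacgcggTGG
CARM1 exon 5 region, chr19:11022879-11022978, plus strand: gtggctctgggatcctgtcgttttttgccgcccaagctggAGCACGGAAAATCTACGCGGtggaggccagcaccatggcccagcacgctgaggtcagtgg
The site lies on chromosome 19 from 11022919 to 11022938, in the canonical transcript's exon 5 of 16, and covers coding bases 618 to 637 of 1824. Cas9 usually cuts 3 bases before the PAM, which here falls after coding base 634, in codon 212 of 608 (stop codon included), so 34.8% of the coding sequence lies before the cut. The alleles of the clone were not measured in these counts. Within the other 8 PRMT genes, the closest site with an NGG motif had between 6 (PRMT8) and 9 (PRMT2) mismatches to the guide.

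The libraries held 30741953 reads in parental and 32300391 in the knockout cells. Counts were made comparable with TMM scaling factors from edgeR, and ratios are given with exact 95% binomial (Clopper-Pearson) intervals that cover counting error only. A gene was counted as past 3-fold, the fold threshold of the study, when its scaled ratio exceeded 3 in either direction, and as past 1.5-fold when its ratio exceeded 1.5 and its interval excluded 1. Of the epithelial ovarian markers, 8 of 10 had at least 10 reads, 6 of these were past 3-fold higher and 1 (KRT19) past 3-fold lower in CARM1 KO cells, and their summed level, as scaled reads per 1e6 reads (RPM), was 1413 in parental and 4751 in CARM1 KO cells. PAX8 had 311 and 1149 reads, while MUC16 had 0 and 1 and WT1 had 8 and 1. Of the 5 fibroblast markers, 3 were past 3-fold lower (THY1 at 678 and 4 reads, LUM at 61 and 1, DCN at 24 and 0) and 1 was past 3-fold higher (COL1A1 at 131 and 537), with sums of 32.9 and 21.5 scaled RPM. The immune markers summed to 13.1 and 51.8 scaled RPM (CD68 in the main, with PTPRC at 6 and 0 reads and CD3E at 0 in both). The endothelial markers summed to 0.353 and 0.376 scaled RPM, without PECAM1, which was not matched by symbol. The part of these marker differences in the results below was not tested. Both libraries come from the A1847 line, and in bulk RNA fewer cells with a marker and less RNA per cell cannot be told apart.

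In CARM1 KO cells, CARM1 and the type I genes PRMT6 and PRMT1 were lower past 1.5-fold, PRMT3 was lower under that limit, and the type II gene PRMT5 was higher just under it. None of the 8 members was past 3-fold, against 24.5% of the 18563 genes with at least 10 reads. Past 1.5-fold there were 3 of 8 members (37.5%), all lower, against 50.3% of these genes in either direction, 25.6% higher and 24.8% lower. All 8 members had at least 1000 reads in the 2 libraries together. Among the 7789 genes at that depth, 10.5% were past 3-fold (5.82% higher, 4.67% lower) and 41.7% past 1.5-fold (21.5% higher, 20.1% lower). The family's share past 1.5-fold was thus below the background in either direction and above it for lower genes alone, with 8 genes behind it. The 3 lower members include CARM1, the edited gene that defines the knockout group, which leaves PRMT1 and PRMT6 as the others. The share for lower genes is therefore not independent of the edit. The median size of the log2 ratio was 0.55 over the 8 members, 0.48 over the genes with at least 1000 reads and 0.72 over all genes with at least 10 reads.

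**Figure D1:**
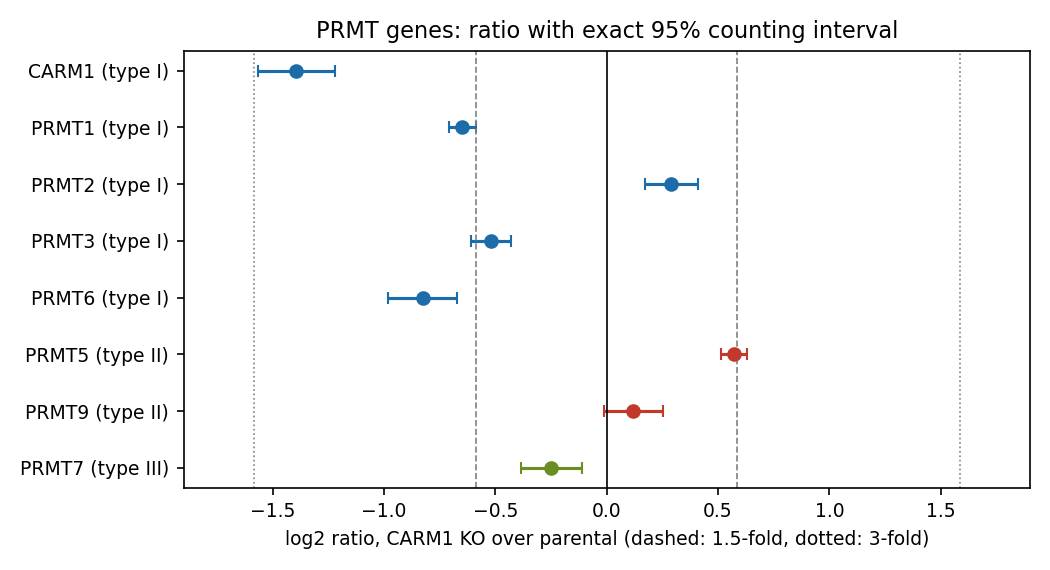
Scaled log2 ratio of CARM1 KO over parental cells (horizontal axis) for the 8 PRMT genes with at least 10 reads, with exact 95% binomial intervals for counting error only; colours mark the methylation type. CARM1, PRMT6 and PRMT1 lie left of the dashed 1.5-fold line, PRMT5 at 0.57 lies on the opposite side, and no point reaches the dotted 3-fold lines.

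CARM1 (ENSG00000142453) spans chr19:10982229-11033751 on the plus strand (GRCh37, as for all positions here). It had 975 parental and 380 CARM1 KO reads. The targeted gene was therefore lower in the library labelled as knockout, although its RNA was still present at 38.1% of the parental level. The ratio was 2.63-fold lower (95% interval 2.33 to 2.97), and 13.5% of the genes with at least 10 reads had a lower ratio than CARM1. The counts are sums over the whole gene and do not show how many of the remaining reads carry an edited site. They do not measure protein either, which the paper examined by CARM1 immunoblots of parental and knockout cells.

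The genes around CARM1 did not share its difference. The log2 ratio of CARM1 was -1.39, while the 10 nearest protein-coding genes with at least 10 reads had a median of -0.07 and a lowest value of -0.30, so all 10 lay above CARM1. Upstream, C19orf38 had 20 and 105 reads and TMED1 had 558 and 495, the parental value given first here and below. Downstream, TIMM29 had 481 and 399 reads, and SMARCA4, the SWI/SNF ATPase gene named here outside the rule for neighbours, had 4739 and 4347 reads. YIPF2, which overlaps the 3′ end of CARM1 by 891 bp on the opposite strand, had 274 and 485 reads and was higher in CARM1 KO cells. Of the 75-base words in CARM1 transcripts, 16.5% also occur in YIPF2 transcripts, counting either strand, and whether strand was used in the authors' counting is not given in the sources used here.

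Among the other type I genes, PRMT1, PRMT3 and PRMT6 were lower and PRMT2 was higher in CARM1 KO cells. PRMT1 (chr19:50179043-50192286, plus strand), the enzyme that makes most of the asymmetric dimethylarginine in many cells, had 5532 parental and 3612 CARM1 KO reads. This was a 1.57-fold lower level (95% interval 1.503 to 1.636), past the smaller limit. PRMT6 (chr1:107599296-107610258, plus strand), a nuclear enzyme that methylates histone H3, had 915 and 528 reads. Its level was 1.77-fold lower (95% interval 1.59 to 1.98), which was the second-lowest ratio of the family after CARM1. The difference was larger for CARM1 than for PRMT6. The ratio of CARM1 to PRMT6 reads was 1.07 (0.973 to 1.17) in the parental and 0.720 (0.629 to 0.823) in the CARM1 KO library, a 1.48-fold lower ratio (95% interval 1.26 to 1.74). This and the other pairs of genes below were chosen after their values were seen.

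PRMT3 (chr11:20409104-20530884, plus strand), a cytosolic enzyme with a zinc finger that acts on a protein of the small ribosomal subunit, had 2438 parental and 1739 CARM1 KO reads. It was 1.44-fold lower (95% interval 1.35 to 1.53), so its ratio did not reach 1.5. PRMT2 (chr21:48055507-48085036, plus strand), which carries an SH3 domain and is a coactivator of nuclear receptors, went the other way, with 1046 and 1310 reads and a 1.22-fold higher level (95% interval 1.13 to 1.33). PRMT8 (chr12:3490515-3703139, plus strand), a membrane-anchored enzyme known mainly from brain, had 3 parental reads and 1 CARM1 KO read. Neither count exceeds 3 reads, up to which a gene cannot be told from one with a count of 0, so PRMT8 was not detectable above that limit at this depth and no ratio is given.

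The type II genes were not lower in CARM1 KO cells. PRMT5 (chr14:23389734-23398617, minus strand), the main source of symmetric dimethylarginine, had 3962 parental and 6022 CARM1 KO reads. The level of PRMT5 was 1.48-fold higher (95% interval 1.43 to 1.55), and it passed 1.5-fold with DESeq2 size factors, which were equal for both libraries and so left the ratio of raw reads (1.52), and upper-quartile scaling (1.502). PRMT5 and PRMT1 thus changed places in the order of read counts. The ratio of PRMT5 to PRMT1 reads, which needs no scaling, was 0.716 (0.687 to 0.746) in parental and 1.67 (1.60 to 1.74) in CARM1 KO cells, a change of 2.33-fold (95% interval 2.20 to 2.47). PRMT9 (chr4:148558936-148605314, minus strand), which methylates a splicing factor, had 874 and 972 reads, and its ratio of 1.09 had an interval that included 1 (0.990 to 1.19). The type III gene PRMT7 (chr16:68344854-68394755, plus strand) had 920 and 793 reads and a 1.19-fold lower level (95% interval 1.08 to 1.31).

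**Figure D2:**
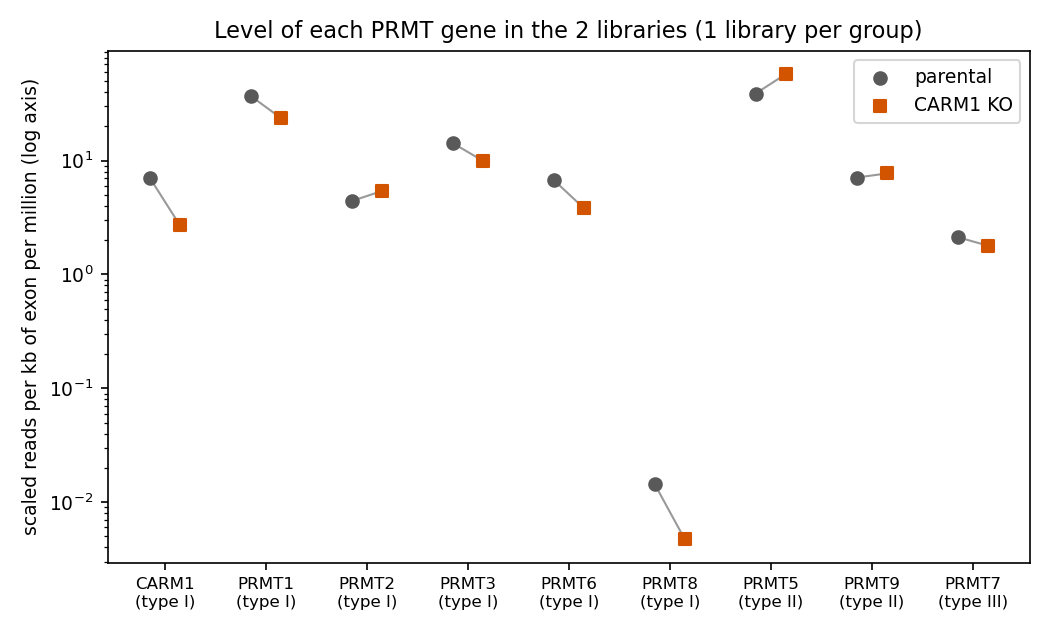
Scaled RPKM (vertical log axis) for the 9 PRMT genes in the parental library (circles) and the CARM1 KO library (squares), grouped by methylation type, with 1 library per group and no error bars. PRMT1 and PRMT5 are the highest in both libraries, CARM1 goes from 7.08 to 2.70, and PRMT8 rests on 3 reads and 1 read.

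Levels were compared between members per kb, as RPKM computed here from the scaled counts with the union of all annotated exons as the length. In parental cells PRMT5 had 38.8 and PRMT1 had 37.0 scaled RPKM, followed by PRMT3 with 14.3. PRMT9 (7.10), CARM1 (7.08) and PRMT6 (6.77) lay close together, with PRMT2 (4.42) and PRMT7 (2.13) below them. As shares of the family's summed level, PRMT9 had 6.04% (5.65 to 6.43), CARM1 6.02% (5.66 to 6.40) and PRMT6 5.75% (5.40 to 6.13), so these neighbours in the order did not differ beyond counting error. In CARM1 KO cells PRMT5 stood at 57.7 and PRMT1 at 23.6, with PRMT3 at 9.95, PRMT9 at 7.71, PRMT2 at 5.40, PRMT6 at 3.82, CARM1 at 2.70 and PRMT7 at 1.79. CARM1 moved from rank 5 to rank 7 and its share from 6.02% to 2.39% (2.16 to 2.64). Its rank went from 5 to 8 with the longest transcript and from 6 to 8 with the longest coding length.

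The make-up of the family differed between the libraries. All 9 genes together had 117.7 scaled RPKM in parental and 112.6 in CARM1 KO cells, while the sums were 219.9 and 192.5 per kb of the longest transcript and 369.0 and 311.2 per kb of the longest coding length. The type I genes accounted for 59.2% of this in parental and 40.4% in CARM1 KO cells, and the type II genes for 39.0% and 58.0%. The shift was also present without CARM1, since the other 5 type I genes made up 53.1% and 38.0%. PRMT5 by itself went from 33.0% (32.2 to 33.8) to 51.2% (50.4 to 52.0). The choice of length moved these shares but not their direction. With the longest annotated transcript as the length, the type II share was 27.6% and 45.2%, and with the longest coding length it was 21.04% and 35.62%. PRMT1 rather than PRMT5 then ranked highest in parental cells. With the longest coding length PRMT1 also ranked highest in CARM1 KO cells, at 32.7% (31.9 to 33.5) against 31.8% (31.1 to 32.5) for PRMT5.

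Sequence shared with other genes bears on how the authors' counting could divide reads, and for 6 members it was rare. For PRMT2, PRMT3, PRMT6 and PRMT9, 0% of the 75-base transcript words occurred in a transcript of another gene, and for PRMT1 and PRMT8 the shares were 1.84% and 1.70%. The shares were 12.7% for PRMT5, shared most with its antisense gene PRMT5-AS1, and 10.5% for PRMT7, shared most with SMPD3. PRMT5-AS1 had 16 parental and 6 CARM1 KO reads, and SMPD3 had 11 and 6, so these partners held few reads. The pseudogenes PRMT1P1, PRMT5P1 and CARM1P1 had 0 reads in both libraries.

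The members lie on 8 chromosomes, with CARM1 and PRMT1 on opposite arms of chromosome 19. For PRMT1 the surrounding genes were lower as well. The 10 neighbours of PRMT1 had a median log2 ratio of -0.84, 8 of the 10 were below 0, and PRMT1 at -0.65 lay within their range. BCL2L12, the nearest upstream gene, had 318 and 205 reads, and IRF3 had 529 and 229. Downstream, ADM5 had 5 and 11 reads and CPT1C had 818 and 51 reads, a 16.4-fold lower level in CARM1 KO cells.

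For PRMT6, PRMT3 and PRMT7 the neighbours' median was on the other side of 0. Neighbours were taken by order rather than distance, so these surroundings are not alike in size. The farthest lay 5890026 bp from PRMT6 and 2304460 bp from PRMT3, but 117836 bp from PRMT1. PRMT6 at -0.83 had neighbours with a median of 0.71 that ranged from -11.34 to 5.00, among them AMY2B (38 and 125 reads), RNPC3 (535 and 590), NTNG1 (299 and 420) and VAV3 (21 and 66). PRMT3 at -0.52 had neighbours with a median of 1.69, which was 1.08 when neighbours needed at least 1 read and 0.79 when they needed 50, and PRMT7 at -0.25 a median of 0.89. For PRMT5 and PRMT9, at 0.57 and 0.12, the medians of 0.24 and 0.08 were above 0 as well, and that of PRMT5 was 0.08 with at least 50 reads. PRMT2 at 0.29 lies near the end of chromosome 21, where 5 neighbours were available with a median of -0.40, and it was level with the highest of them, PCNT, at 0.28 (2100 and 2619 reads).

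**Figure D3:**
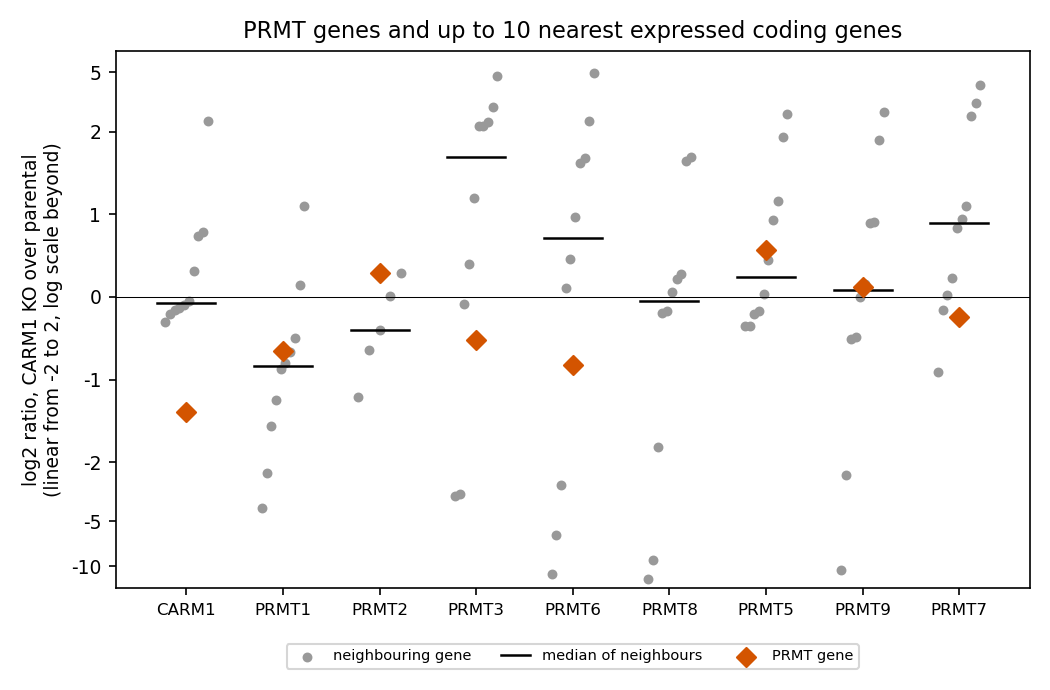
Log2 ratio of CARM1 KO over parental cells (vertical axis, linear from -2 to 2 and log beyond) for each PRMT gene (diamond) and its nearest protein-coding genes with at least 10 reads (grey points, 5 on each side, and 5 in all for PRMT2), with the median of the neighbours as a bar. CARM1 at -1.39 lies below all 10 of its neighbours, while PRMT1 at -0.65 lies near its neighbours' median of -0.84; PRMT8 has no diamond because it had 4 reads in all.

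PRMTs work with adaptor proteins, and genes of 8 companion lists were read for that reason. Over the 94 companion genes with at least 10 reads, each counted once, 17 were higher and 18 lower past 1.5-fold, which is 37.2% against 50.3% of all genes with at least 10 reads and 41.7% of those with at least 1000. With TMM on protein-coding genes the split was 14 higher and 27 lower, and with library size it was 15 higher and 24 lower. The share of the single lists ran from 21.1% for the PRMT1 substrates to 66.7% for the list described last, which has 3 genes.

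Of the PRMT partners and adaptors, 9 of 10 were tested, 2 were higher and 1 lower past 1.5-fold, and the median log2 ratio was 0.31. The share past 1.5-fold was 33.3%, against 50.3% of all genes with at least 10 reads and 41.7% of those with at least 1000. BTG1 and BTG2, related antiproliferative proteins that bind PRMT1, were in opposite directions. BTG1 had 191 parental and 602 CARM1 KO reads (3.08-fold higher, 95% interval 2.61 to 3.64). BTG2 had 581 and 81 reads (7.34-fold lower, 95% interval 5.81 to 9.38). GEMIN2, of the SMN complex, was the other gene past 1.5-fold, with 606 and 1053 reads (1.70-fold higher). CLNS1A, the adaptor that presents Sm proteins to PRMT5, had the highest level of the list with 71.2 and 61.1 scaled RPKM, a 1.17-fold lower level.

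WDR77, the subunit that PRMT5 needs for its activity, and the adaptors RIOK1 and COPRS were singled out after their values were seen. WDR77 had 1694 parental and 2519 CARM1 KO reads, which was 1.45-fold higher (95% interval 1.37 to 1.55). This was close to the difference of PRMT5 itself, although 21.7% of the 75-base words of WDR77 are shared with another gene. The ratio of PRMT5 to WDR77 reads was 2.34 (2.21 to 2.48) in parental and 2.39 (2.28 to 2.51) in CARM1 KO cells. The change between these ratios was 1.02-fold, with an interval of 0.949 to 1.10 that included 1. RIOK1 was 1.24-fold higher and COPRS 1.09-fold lower, the latter with an interval that included 1 (0.999 to 1.18).

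The S-adenosylmethionine (SAM) and methionine cycle list holds genes that make or use this methyl donor and genes of linked steps. Of its 18 genes, 16 were tested and 12 of these had a log2 ratio below 0, with a median of -0.51. Of all genes with at least 10 reads, 9482 of 18563 were below 0. Past 1.5-fold, 2 of the list were higher and 3 lower (31.2%, against 50.3% of all genes with at least 10 reads). This count of 5 became 8 with library size and 9 with TMM on protein-coding genes. NNMT, which uses SAM to methylate nicotinamide, had 731 and 3973 reads and was 5.31-fold higher (95% interval 4.90 to 5.75). MAT1A, the liver-type SAM synthetase, had 44 parental reads and none in the knockout library. With the 0 set to the limit of 3 reads it was 15.02-fold lower, while the near end of its exact interval was 11.7-fold. SRM, a spermidine synthase, was 1.61-fold lower (607 and 387 reads). SMS, a spermine synthase with the highest level per kb of the list, was 2.30-fold higher (8688 and 20481 reads).

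MAT2A, AHCY and MTAP were named after their values were seen, because of their direct link to PRMT activity. MAT2A, the SAM synthetase of most tissues, was 1.46-fold lower (5712 and 4016 reads), and AHCY, which removes the product of methylation, was 1.47-fold lower (6855 and 4780 reads). Both lay just under the limit of 1.5 and passed it with TMM on protein-coding genes (1.502 and 1.515), and AHCY also with library size (1.507). MTAP, whose loss in tumours lets a metabolite build up that inhibits PRMT5, had 2925 and 3745 reads and was therefore expressed in both libraries, 1.25-fold higher in CARM1 KO cells.

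**Figure D4:**
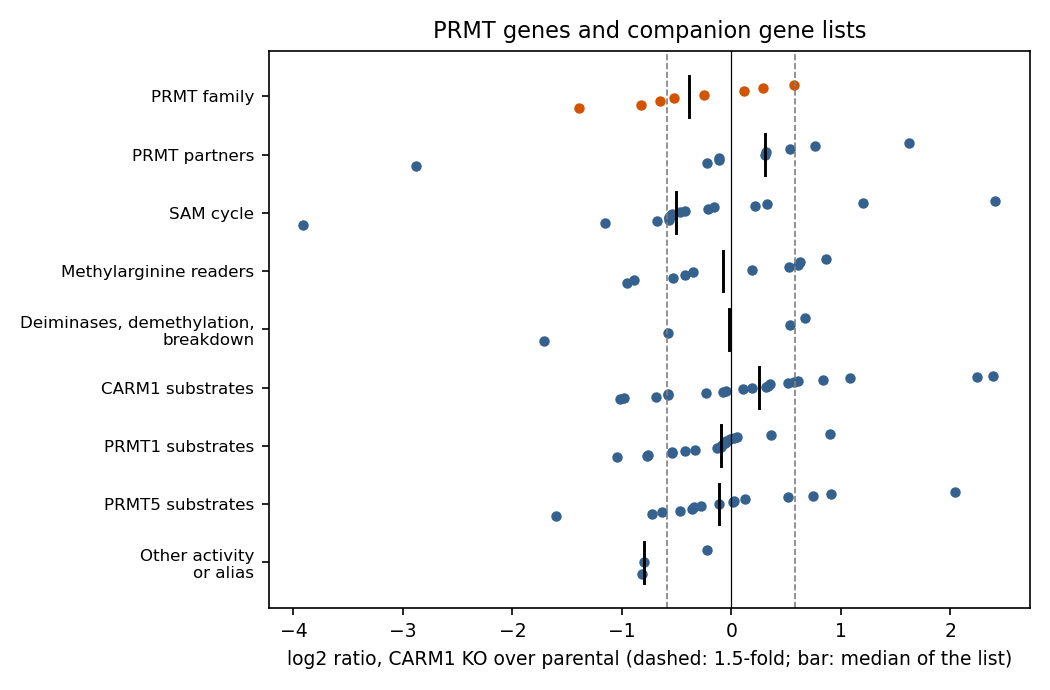
Log2 ratio of CARM1 KO over parental cells (horizontal axis) for the tested members of the PRMT family and of each companion list (1 point per gene, vertical spread for display, bar for the list's median, dashed lines at 1.5-fold). The PRMT family has a median of -0.38 and stays between -1.39 and 0.57, with at least 1000 reads for each gene. Every list but the last has at least 1 gene beyond that range. The lowest is MAT1A, with 44 and 0 reads and its 0 set to 3. The median size of the log2 ratio was 0.55 over the family and 0.54 over all companion genes.

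Methylarginine readers, proteins whose domains bind methylated arginine, had 10 of 13 genes tested, with 3 higher and 2 lower past 1.5-fold. SPIN1 was 1.82-fold higher (2949 and 5481 reads) and SND1 was 1.94-fold lower (5591 and 2956 reads). SMN1, the highest of the list per kb in parental cells, was 1.85-fold lower and SMN2 was 1.53-fold higher, but 81.2% and 86.3% of their 75-base words are shared and their separate counts are uncertain. The sum of both went from 6639 to 5664 reads, a log2 ratio of -0.26 or 1.2-fold lower, which is not past 1.5-fold. The 3 higher and 2 lower readers above count SMN2 and SMN1 separately. Of the deiminases, demethylation and breakdown genes, 4 of the 8 that were matched were tested. DDAH1, which breaks down free asymmetric dimethylarginine, was the highest of these per kb and 1.60-fold higher (4598 and 7516 reads). JMJD6 was 1.49-fold lower (1925 and 1323 reads), and PADI2, a deiminase at 16 and 5 reads, was 3.28-fold lower with a wide interval (1.15 to 11.4).

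Genes whose proteins are known substrates of CARM1 had 20 of 20 tested, with 5 higher and 3 lower past 1.5-fold and a median log2 ratio of 0.25. The transcription factor genes NFIB (325 and 1742 reads, 5.24-fold) and RUNX1 (129 and 625 reads, 4.73-fold) were higher past 3-fold. The acetyltransferase gene EP300 had the lowest ratio, with 1336 and 674 reads (2.03-fold lower), and GAPDH the highest level per kb, with 50219 and 76187 reads (1.48-fold higher). SMARCC1, which encodes BAF155 and was named for its place in the study, had 6585 and 7695 reads, a 1.14-fold higher level (95% interval 1.10 to 1.18).

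Substrate genes of PRMT1 had 19 of 20 matched and tested, with 1 higher and 3 lower past 1.5-fold. That is 21.1% of the list, against 50.3% of all genes with at least 10 reads and 41.7% of those with at least 1000. The DNA repair genes MRE11 (2523 and 4807 reads, 1.86-fold higher) and TP53BP1 (5465 and 2714 reads, 2.06-fold lower) were at the ends of the list. Of the 75-base words of TP53BP1, 24.3% are shared with TUBGCP4. HNRNPA1, the list's highest gene per kb in parental cells and in CARM1 KO cells, had 51623 and 53867 reads, a ratio of 1.02. Substrate genes of PRMT5 had 15 of 15 tested, with 3 higher and 3 lower past 1.5-fold. KLF4 was 4.12-fold higher (18 and 76 reads, 95% interval 2.44 to 7.33), SREBF1 was 3.04-fold lower (627 and 211 reads) and RPS10, the highest per kb, was 1.87-fold higher (24737 and 47441 reads), although 26.2% of its words are shared with other genes.

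The last list held genes with a reported arginine methyltransferase activity outside the family or an older PRMT alias. All 3 had a log2 ratio below 0, as had 9482 of the 18563 genes with at least 10 reads. FBXO11, which once carried the name PRMT9, was 1.76-fold lower (2392 and 1393 reads). Of its 75-base words, 30.2% are shared with other genes, most with MSH6. NDUFAF7, a mitochondrial enzyme that methylates a subunit of complex I, was 1.74-fold lower (1136 and 669 reads). METTL23 was 1.17-fold lower (778 and 682 reads) and had the highest level per kb of the list.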

How the data were processed

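A1847 cells gave 1 parental and 1 CARM1 KO library. After paired-end sequencing (75 bp), the authors mapped reads to hg19 by bowtie2, and RSEM produced the estimated counts per Ensembl gene that were deposited as whole numbers with no normalization. The sources used here differ on the RSEM version, and the Ensembl release and use of strand are not given in the sources used here. The counts were used as deposited. Identifiers were matched to GENCODE v44 on GRCh37, which held 55501 of 57736 genes.

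Counts were scaled by TMM in edgeR 4.0.16 (R 4.3.3). Ratios were computed where a gene's 2 counts summed to at least 10, with 0 set to 3 reads, and exact 95% binomial intervals from scipy 1.17.1. With 1 library per group a quasi-likelihood model could not be fitted in edgeR, so no P value is given and genes are described by limits of 3-fold and 1.5-fold. The ratio and interval steps were tested on simulated data. Alternatives were library size, DESeq2 1.42.0 size factors, upper-quartile scaling, TMM on protein-coding genes, other read minimums, a prior count of 2, other lengths, a 99% interval and edgeR's exact test with a set coefficient of variation.

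The members and companion lists were chosen with earlier results of these data known. Named genes were all members, and from each list those past 3-fold, the largest rise and fall among genes with at least 50 reads, and the highest level per kb. The 2 nearest neighbours on each side were named for members past 1.5-fold. Some exceptions are stated where they occur. GEMIN2, SRM, SMN2, NDUFAF7 and the PRMT2 neighbour PCNT were also named outside this rule, as were genes named for overlap or shared sequence. One gene that this rule names is not reported here. PADI6, TAF15 and the marker PECAM1 were not matched by symbol. ChIP-seq was left out.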

Additional observations from a re-analysis of the deposited data

How the results depend on the processing

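The scalings moved all log2 ratios by between -0.04 and 0.03 against TMM. CARM1 stayed lower, with log2 ratios from -1.44 to -1.36, and 0 members were past 3-fold under each scaling, a prior count of 2 and edgeR's exact test with a coefficient of variation of 0.12 or 0.4. The members past 1.5-fold were 3 or 4, PRMT5 being the one added by DESeq2 size factors and upper-quartile scaling. For the 7 other tested members and WDR77, 40 of 40 further comparisons stayed within the counting interval. The CARM1 share of the summed family level depended on the length, at 4.32% and 1.88% in parental and CARM1 KO cells with the longest transcript and 4.53% and 2.04% with the longest coding length. Of all genes, 1219 were lower past 3-fold with at least 50 reads, against 2175, because fewer genes were tested. At a coefficient of variation of 0.4, 543 genes were higher and 888 lower. With at least 1000 reads, a limit chosen after seeing the data, 453 and 364 genes were past 3-fold and 1677 and 1569 past 1.5-fold, higher and lower respectively, again from fewer genes. Single list counts stayed within 1.5 times in 48 of 56 comparisons. No paired analysis was possible because each group holds 1 library, and leaving out a library would leave nothing to compare.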

Other observations

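A non-coding gene that starts beside PRMT5 and the antisense gene across it were counted at low levels. PRMT5-DT, a divergent transcript, had 5 parental and 17 CARM1 KO reads, and PRMT5-AS1 had 16 and 6. TMEM184C overlaps PRMT9 by 34260 bp on the opposite strand and had 1898 and 2168 reads.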
